A study of Mus musculus with 4 samples.

Results

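The interferon response genes are those that cells switch on after an interferon binds its receptor. A list of 33 of them was read from arrays of small intestine, and 30 had a probe set annotated with that gene alone, among 12393 genes named on the array. Where a gene had several such probe sets, the one brightest on average over the 4 arrays stood for it. Isg15, whose probe set is shared with another gene, and Ddx58 and Ifi44 were not analysed here. Of the 30, 26 were bright enough to test, and Ifit2, Mx1, Mx2 and Cxcl9 were among the dimmest 30% of probe sets.

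The null group was made up of 2 mice labelled HNF4 null, a male and a female, both HNF4 loxP/- with villin-Cre, a recombinase driven in the intestinal epithelium. The controls were a male, HNF4 loxP/- without Cre, and a female, HNF4 loxP/+ with villin-Cre. All 4 were 1 month old, each gave 1 array of total RNA from small intestine, and all carried a loxP allele. The controls therefore differed from each other in sex, in Cre and in the second allele, and the labels name neither the HNF4 paralogue nor the stretch of gut taken.

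Interferons of type I and type III act through the kinases JAK1 and TYK2 on a complex that holds STAT2 and IRF9 and binds the interferon-stimulated response element in promoters. Type II interferon, made by T cells and NK cells, acts at the gamma-activated site. In the mouse gut, the epithelium responds chiefly to the type III ligands and the cells of the lamina propria to type I, and many of the induced proteins block viral replication or attack the vacuoles of intracellular parasites.

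The response elements in the promoters are shown first, because they are the sequence through which interferon signalling is known to act on such genes. The core of the interferon-stimulated response element, TTTC, any 2 bases and again TTTC, was searched on both strands of RefSeq promoter windows on GRCm38.p6, from 250 bases before to 50 bases after each gene's start. Windows were given for 22 of the 30 genes, and 13 of these held the motif (59.1%), against 3.99% of all 27025 genes with a window. The gamma-activated site TTCNNNGAA was found for 9 of the 22 (40.9%), against 9.55% of all genes, and in 1 of them, Bst2, it overlapped the other motif. An HNF4-type element, CAAAGTCCA, was found for 0 of the 22, against 0.555% of all genes. These are counts of letters in a window and not of bound sites, and the genes were listed for being induced by interferon.

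The 8 genes that follow held the core motif and had their highest level in the null female and their lowest in the null male, the order most of the results below turn on. Each line gives 30 bases, 5′ to 3′ on the strand of the gene, with the core motif in capitals.
Ifih1 (chr2:62646206-62646235, minus strand): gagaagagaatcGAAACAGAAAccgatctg
Ifit1 (chr19:34640784-34640813, plus strand): gTTTCACTTTCcagtctcagTTTCAGTTTC
Ifit3 (chr19:34583363-34583392, plus strand): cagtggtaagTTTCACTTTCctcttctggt
Bst2 (chr8:71537580-71537609, minus strand): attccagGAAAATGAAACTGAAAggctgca
Gbp2 (chr3:142620594-142620623, plus strand): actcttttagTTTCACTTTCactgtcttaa
Gbp3 (chr3:142559992-142560021, plus strand): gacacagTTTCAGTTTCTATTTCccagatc
Igtp (chr11:58199512-58199541, plus strand): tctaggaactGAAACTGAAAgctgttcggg
Irgm1 (chr11:48871428-48871457, minus strand): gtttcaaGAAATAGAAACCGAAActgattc

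The other 5 tested genes with the motif did not have that order of arrays, and their sites are given for comparison in the same form.
Cxcl10 (chr5:92349083-92349112, minus strand): tcacgctttgGAAAGTGAAActtacctcac
Eif2ak2 (chr17:78882535-78882564, minus strand): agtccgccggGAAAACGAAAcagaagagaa
Oas1a (chr5:120907523-120907552, minus strand): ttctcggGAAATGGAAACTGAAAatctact
Rsad2 (chr12:26456553-26456582, minus strand): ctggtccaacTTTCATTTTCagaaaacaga
Stat2 (chr10:128270266-128270295, plus strand): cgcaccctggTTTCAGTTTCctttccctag

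Of the tested genes with that order, 8 of 11 with a window held the motif, and of the other tested genes 5 of 9 did. Whole windows are shown for an antiviral effector, Ifit1, and a GTPase, Irgm1, each with more than 1 motif.
Ifit1 promoter (chr19:34640639-34640938, plus strand): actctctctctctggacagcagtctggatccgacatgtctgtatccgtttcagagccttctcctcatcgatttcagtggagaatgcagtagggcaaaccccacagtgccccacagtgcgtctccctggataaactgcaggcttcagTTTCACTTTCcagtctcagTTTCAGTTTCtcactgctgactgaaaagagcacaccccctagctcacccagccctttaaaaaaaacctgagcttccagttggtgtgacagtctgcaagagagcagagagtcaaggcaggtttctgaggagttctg
Irgm1 promoter (chr11:48871371-48871670, minus strand): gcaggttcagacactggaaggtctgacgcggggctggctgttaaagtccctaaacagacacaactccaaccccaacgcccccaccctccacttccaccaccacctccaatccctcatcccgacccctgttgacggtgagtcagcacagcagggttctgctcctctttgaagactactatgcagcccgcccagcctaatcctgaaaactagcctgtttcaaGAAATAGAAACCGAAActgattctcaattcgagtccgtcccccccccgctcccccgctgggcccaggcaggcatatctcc

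No interferon response gene separated the null from the control intestines in the test over all probe sets. With limma, 0 of 26 passed an adjusted p of 0.05, where 0.0126% of the 15838 probe sets tested did, and 0 of 26 had an unadjusted p under 0.05, against 3.03% of probe sets. The null minus control difference over the 26 genes had a median of 0.08 on the log2 scale, with 17 higher (65.4%, against 50.3% of all genes) and 9 lower, beside a median of 0.00 over the 9546 genes tested. In 4 genes, Irf9, Rsad2, Eif2ak2 and Cxcl10, both null animals were above both controls (15.4%, against 14.4% of all genes), and in 0 both were below (15.2% of all genes). For Cxcl10 only the null female was above the background level given below, and for Rsad2 the probe sets disagreed. Levels here are normalized intensities or, for differences, log2 of the normalized intensity plus 16. With 2 animals per group the precision is low, and standard errors of the 26 differences ran from 0.20 for Eif2ak2 to 0.79 for Ifit1.

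What the genes did share was the order of the animals. The null female was the highest of the 4 arrays in 20 of the 26 genes (76.9%), against 27.4% of all genes tested. The null male was the lowest in 16 (61.5%), against 32.8% of all genes. Both held in 15 genes (57.7%), against 14.4% of all genes. Among the 3587 genes in the middle range of mean level of the interferon genes, the null female was highest in 26.2%, the null male lowest in 35.4% and both in 15.1%. The 2 null animals thus stood on opposite sides of the 2 controls for most of these genes. The median log2 difference of the null female over the null male was 0.93 over the 26 genes and 0.01 over all genes. Between the control female and the control male the medians were 0.00 and −0.01. The null animals were further apart than the controls in 23 of the 26 genes (88.5%), against 65.2% of all genes.

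**Figure D1:**
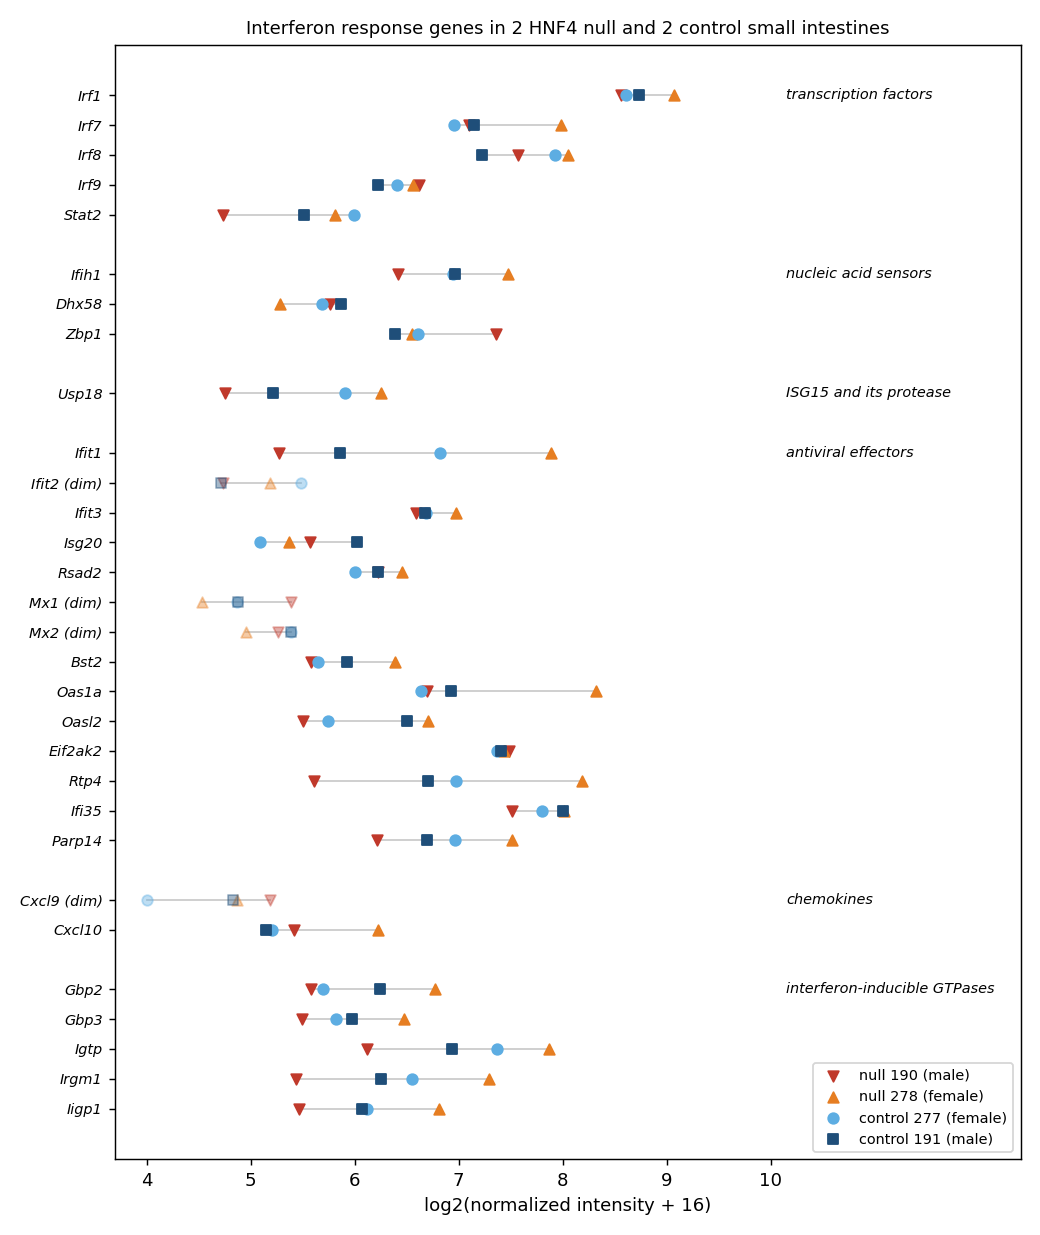
Level of each interferon response gene on each array, as log2 of normalized intensity plus 16 on the horizontal axis, with genes grouped by role and 1 point per animal. The null female (orange) lies at the right end of 20 of the 26 genes tested and the null male (red) at the left end of 16, and paler points mark the 4 dim genes.

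The arrays themselves differed before normalization. The null male had the lowest median deposited intensity, 43.2 against 49.5 to 53.3 on the others, and 2.46% of its values were below 0, against 1.42% to 1.60% on the others, and its correlations with the other arrays across probe sets were 0.927 to 0.946. Quantile normalization removed the difference in medians, and the part of array signal in the order of the animals was not tested. Hnf4a, on its brightest probe set, had deposited intensities of 1136 in the null male and 1025 in the null female, against 731 in the control male and 1141 in the control female. Over the 4 probe sets of Hnf4a and the 2 of Hnf4g, log2 differences ran from 0.08 to 0.32, and each had adjusted p = 1 in limma. The sources used here do not say which part of which gene was deleted, so these values check no label. As a measure of background, Y-linked Eif2s3y, Kdm5d and Uty reached at most 31.2 in the 2 females. At or below that level were 8 of the 26 genes in the null male, 2 in the null female, 3 in the control male and 2 in the control female, so in the null male the readings of those 8 genes, Stat2, Usp18, Ifit1, Oasl2, Cxcl10, Gbp3, Irgm1 and Iigp1, lie within background and differences from them are uncertain in size.

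Among the transcription factors, the 5 genes did not share an order. Irf7, which amplifies the type I response, had 121 in the null male and 237 in the null female, against 126 in the control male and 108 in the control female. Only the null female stood apart. Irf1, a factor of the type II response, was similarly highest in the null female, with 361 in the null male and 521 in the null female, against 409 in the control male and 374 in the control female.

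Irf8, a factor of myeloid and B cells, had 174 in the null male and 249 in the null female, against 133 in the control male and 227 in the control female, so both females were above both males. Its other probe set gave a null minus control log2 difference of −0.08, against 0.24 on the brighter one. Irf9, the DNA-binding part of the type I complex, had 82.6 in the null male and 78.4 in the null female, against 58.9 in the control male and 69.0 in the control female. The groups did not overlap, with a log2 difference of 0.27 (SE 0.22, 95% interval −0.25 to 0.80, adjusted p = 1 in limma). Stat2, the signalling subunit of that complex, had 10.5 in the null male and 40.1 in the null female, against 29.7 in the control male and 47.9 in the control female. Its difference was −0.49 (SE 0.40, 95% interval −1.45 to 0.48, adjusted p = 1 in limma), and its second probe set pointed the other way at 0.18. The Stat2 difference was 0.05 without the null male and −1.04 without the null female, so Stat2 has no settled direction between the groups.

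Of the sensors of viral nucleic acid, Ifih1, which encodes the double-stranded RNA sensor MDA5, had 69.5 in the null male and 162 in the null female, against 109 in the control male and 108 in the control female. The controls were nearly equal and the null animals lay on either side of them. Zbp1, a sensor of Z-form nucleic acid, was highest in the null male, with 148 in the null male and 77.9 in the null female, against 67.8 in the control male and 81.4 in the control female. Its log2 difference was 0.46 (SE 0.31, 95% interval −0.28 to 1.20, adjusted p = 1 in limma), with 0.97 between the males and −0.05 between the females. The Zbp1 difference was 0.06 without the null male and 0.86 without the null female. On its second probe set both null animals were above both controls, with a difference of 0.17. Dhx58, which encodes the regulator LGP2, had 38.5 in the null male and 23.0 in the null female, against 42.6 in the control male and 35.6 in the control female. It was lowest in the null female. Its 2 other probe sets were too dim to test, and both were lowest in the null male.

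Usp18, the protease that removes ISG15 and restrains the type I receptor, had 11 in the null male and 60.2 in the null female, against 21.3 in the control male and 43.8 in the control female. Both females were above both males, and the 2 male values were within the background level.

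Of the 11 antiviral effectors tested, most had the order of animals given above, with the null female highest in 9 and the null male lowest in 7. Ifit1, which binds viral RNA that lacks a mature cap, had 22.8 in the null male and 220.5 in the null female, against 42.0 in the control male and 97.3 in the control female. Rtp4, a receptor chaperone with antiviral activity, had 32.8 in the null male and 276 in the null female, against 88.2 in the control male and 110 in the control female. Parp14, an ADP-ribosyltransferase, had 58.5 in the null male and 166 in the null female, against 87.3 in the control male and 109 in the control female. For these 3 genes the span between the null animals, 1.29 to 2.61 on the log2 scale, was larger than that between the controls, and the mean difference between the groups was at most 0.24. The reading of Ifit1 in the null male was within background, so its span is not ranked against that of Rtp4.

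Oas1a, which synthesises the oligoadenylates that activate RNase L, had 87.5 in the null male and 304 in the null female, against 106 in the control male and 83.7 in the control female. The null female alone stood apart, and the log2 difference of 0.72 (SE 0.50, 95% interval −0.47 to 1.91, adjusted p = 1 in limma) was made up of −0.24 between the males and 1.68 between the females. The Oas1a difference was 1.52 without the null male and −0.09 without the null female. Oasl2, its relative, had 29.4 in the null male and 88.2 in the null female, against 74.8 in the control male and 37.5 in the control female. Here the pair differences were −1.001 for males and 0.96 for females.

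Bst2, the membrane tether of budding virions, had 32.0 in the null male and 67.5 in the null female, against 44.9 in the control male and 34.04 in the control female. Ifit3, a partner of the other IFIT proteins, had 80.6 in the null male and 110 in the null female, against 86.3 in the control male and 87.1 in the control female. Ifi35, a partner of Nmi, had 166 in the null male and 242 in the null female, against 241 in the control male and 207 in the control female. All 3 had the null male as the lowest and the null female as the highest array, though for Ifi35 the null female and the control male were nearly equal. For Bst2 the null male and the control female were close as well, both just above the background level of 31.2.

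The remaining effectors did not follow that order on their brightest probe sets. Eif2ak2, the kinase PKR that halts translation on double-stranded RNA, was nearly level, with 163 in the null male and 157 in the null female, against 154 in the control male and 149 in the control female. Its second probe set had the null female highest and the null male lowest, with a null minus control difference of 0.002. Isg20, an exonuclease, had 31.5 in the null male and 25.3 in the null female, inside the span of the controls, 49.2 in the control male and 18.0 in the control female. Rsad2, the enzyme viperin, had 58.9 in the null male and 71.8 in the null female, against 58.8 in the control male and 48.2 in the control female. Its 3 probe sets disagreed, with null minus control log2 differences of 0.23, −0.09 and −0.51, so no direction is given, and on the brightest one the null male and the control male were nearly equal.

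All 5 interferon-inducible GTPases, which attack the vacuoles of intracellular parasites and bacteria, had the null female highest and the null male lowest. Igtp had 53.3 in the null male and 218 in the null female, against 106 in the control male and 149 in the control female. Irgm1, a regulator of the family, had 27.2 in the null male and 141 in the null female, against 60.1 in the control male and 77.6 in the control female. Iigp1 had 28.1 in the null male and 96.2 in the null female, against 51.2 in the control male and 53.4 in the control female.

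The guanylate-binding proteins had the same order of animals. Gbp2 had 31.8 in the null male and 93.1 in the null female, against 59.6 in the control male and 35.7 in the control female, and both of its probe sets had that order. Gbp3 had 28.9 in the null male and 72.8 in the null female, against 47.1 in the control male and 40.5 in the control female. In each of the 5 GTPase genes the male pair difference was below 0 and the female pair difference above 0, with medians of −0.66 and 0.69 on the log2 scale.

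Cxcl10, a chemokine that draws T cells, had the smallest unadjusted p of the 26 genes. It had 26.7 in the null male and 58.9 in the null female, against 19.5 in the control male and 20.8 in the control female. Only the null female was above the background level. The log2 difference was 0.65 (SE 0.33, 95% interval −0.14 to 1.43, adjusted p = 1 in limma), and 1.04 without the null male. Irf7 came next at 0.49 (SE 0.32, 95% interval −0.28 to 1.25, adjusted p = 1 in limma). Without the null female the Irf7 difference was 0.04, and without the null male it was 0.92.

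The 4 dim genes stayed at or below the background level of 31.2 on every array. Cxcl9, a chemokine of the type II response, had 20.4 in the null male and 13.2 in the null female, against 12.5 in the control male and −8.22 in the control female. Mx1 and Mx2, dynamin-like antiviral GTPases, and Ifit2 ranged from 7.15 to 28.7 over the 4 arrays. No order of the arrays is read from these 4.

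Most of the genes differed in opposite directions in the male and the female pair. The null minus control log2 difference had a median of −0.46 in the male pair, with 20 of 26 genes lower, and of 0.51 in the female pair, with 23 of 26 higher. In 18 genes (69.2%) the male pair was lower and the female pair higher, against 26.9% of all genes tested. Only 7 genes (26.9%) had the same sign in both pairs, against 48.2% of all genes, and they were Irf8, Irf9, Stat2, Dhx58, Rsad2, Eif2ak2 and Cxcl10. With 1 animal of each sex per group, sex, the animal and the control's genotype cannot be told apart.

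**Figure D2:**
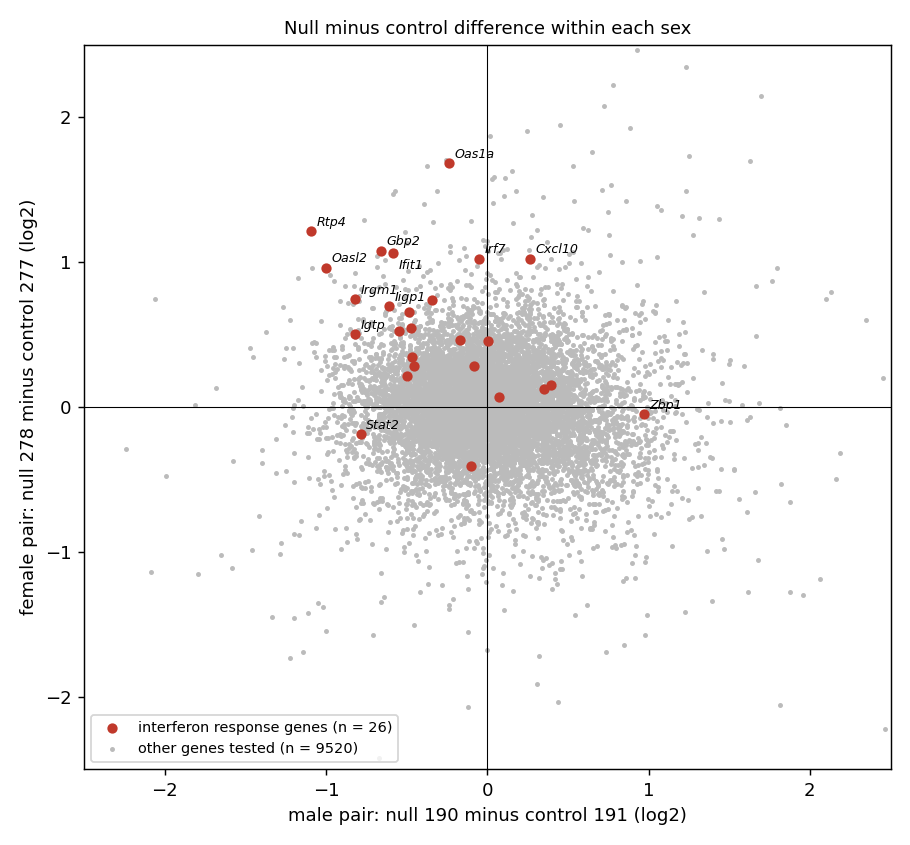
Null minus control log2 difference of the males (horizontal axis) and of the females (vertical axis), 1 point per gene, with the 26 interferon response genes in red and the other genes tested in grey. Of the red points, 18 lie at upper left (male pair lower, female pair higher), and 15 grey points fall outside the axes.

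The group comparison changed with either null animal left out. Without the null male the median difference was 0.58, the null female was above both controls in 22 of 26 genes (35.9% of all genes) and below both in 1 (35% of all genes), and 13 had an unadjusted p under 0.05, all of them higher, against 8.28% of probe sets. Without the null female the median was −0.30, the null male was below both controls in 15 of the 24 genes tested (38.8% of all genes) and above both in 4 (38.5% of all genes), and 9 had such a p, 8 of them lower, against 17.4% of probe sets. In both fits 0 genes passed after adjustment in limma, and the lone null animal was assumed to vary as the controls did. On median-scaled intensities the null female was highest in 19 genes and the null male lowest in 15, and on unnormalized intensities in 22 and 19. Before normalization the array medians had the same ends, 53.3 in the null female and 43.2 in the null male. The unnormalized counts carry that difference and so are no separate check of the order. The share of all genes under these 2 settings is not given here.

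**Figure D3:**
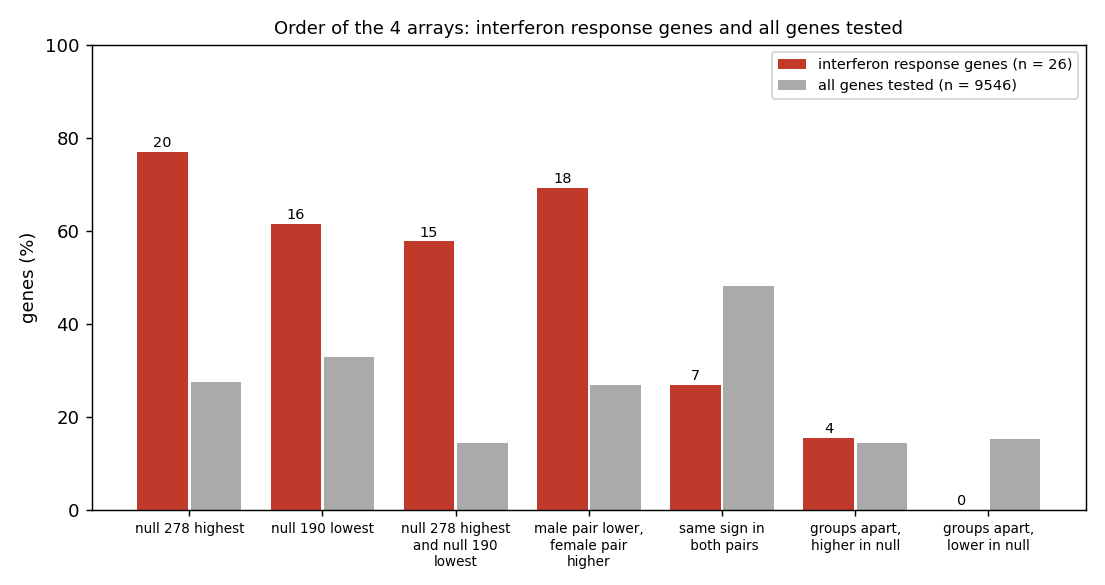
Share of genes, in percent, with each order of the 4 arrays, for the 26 interferon response genes (red, with their number above the bar) and for all 9546 genes tested (grey). The red bars exceed the grey ones for orders that place both null animals at opposite ends (15 genes), put the null female highest (20) or the null male lowest (16), or have the male pair lower and the female pair higher (18), and lie near or below them for a split by group (4 and 0 genes).

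Genes that act upstream were read on the same arrays. Of the interferon ligands, 6 of 10 had a probe set and 2 were bright enough to test. Ifng, the type II ligand, was dim, with deposited intensities of −0.49 in the null male and 17.6 in the null female, against 13.0 in the control male and 18.3 in the control female. Of those 2, Ifnb1 had 44.1 in the null male and 32.7 in the null female, against 13.7 in the control male and 37.9 in the control female, as deposited intensities. The other, Ifna2, had 21.8 in the null male and 38.8 in the null female, against 24.7 in the control male and 25.9 in the control female, as deposited intensities. The groups overlapped for Ifng and Ifnb1. For Ifna2 they overlapped as deposited and did not after normalization, with the null female highest and a log2 difference of 0.19 (adjusted p = 1 in limma). Only the null female, at 35.3 as a normalized intensity, was above the background level of 31.2 for Ifna2, so no order is read from it. Normalized Ifnb1 was below that level in the null female (29.4) and the control male (13.3).

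Among the receptors, 5 of 6 were tested and 0 passed in limma. The log2 differences were −0.20 for Ifnar1 and −0.04 for Ifnar2, the type I receptor chains, 0.04 for Ifngr1 and −0.26 for Ifngr2, the type II chains, and 0.02 for Il10rb, a chain of the type III receptor. The null female was the highest array in 0 of the 5. Of 13 signal transducers tested 0 passed, with Tbk1, a kinase upstream of interferon production, at 0.34 and Stat3 at 0.44. Of 6 inhibitors 0 passed, with Pias1 at −0.24 and Ptpn2 at −0.13.

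A further list of 47 interferon-induced genes, of which 29 were tested, had a median log2 difference of 0.05, and 0 passed in limma. The null female was highest in 16 of the 29, against 27.4% of all genes tested. The null male was lowest in 9, a share near the 32.8% of all genes, so that part of the order was not seen in this list. The smallest unadjusted p values were those of Ifitm1, a block to viral entry, at 0.79 (SE 0.25, adjusted p = 1 in limma) and of Cmpk2, a mitochondrial nucleotide kinase, at −0.65 (SE 0.26, adjusted p = 1 in limma). Ifitm1 had deposited intensities of 122 in the null male and 206 in the null female, against 84.4 in the control male and 92.6 in the control female. Cmpk2 had 41.0 in the null male and 81.1 in the null female, against 103 in the control male and 105 in the control female, as deposited intensities. In both the groups did not overlap. Of the 29 genes, 4 had both null animals above both controls (14.4% of all genes tested) and 3 had both below (15.2%). These shares were near or below those of all genes, so nothing particular is read from the separation of these genes.

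Markers of other cells were read on the same arrays, as sums of normalized intensity. All 7 epithelial markers were tested, 0 of them higher and 6 with both null animals below both controls (15.2% of all genes tested), with summed levels of 19590 in the null male and 18120 in the null female, against 20730 in the control male and 22590 in the control female, so the labelled tissue had the signal of its epithelium. In whole tissue, fewer cells of a type and less RNA per cell cannot be told apart. Markers of T cells and intraepithelial lymphocytes, cells that can make type II interferon, were lower in both pairs in 8 of 8 tested of 11 listed. The same sign in both pairs, in either direction, was found in 48.2% of all genes tested. Of the markers too dim to test, Cd3e was lower in the null group, and Cd2 and Cd8b1 were higher. The sums were 945 in the null male and 743 in the null female, against 1197 in the control male and 1275 in the control female. Gzma was the largest part of each sum, with 605 in the null male and 347 in the null female. By gene, the null male was the lowest array in 6 of the 8 (32.8% of all genes). NK cell markers, 2 tested of 5 listed, summed to 71.5 in the null male and 68.2 in the null female. Their sums were 72.4 in the control male and 83.6 in the control female. Prf1, 1 of the 2, had 28.7 in the null male and 29.8 in the null female, below the background level of 31.2. No order is read from the NK sums. In these lists the null female was highest in 0 of the genes tested.

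Smooth muscle markers had the order of the animals in 4 of 7 genes (14.4% of all genes tested). The null female was highest in 6 of the 7 (27.4% of all genes) and the null male lowest in 4 (32.8% of all genes). By sum the control male was the lowest, with 2304 in the null male and 2934 in the null female, against 2212 in the control male and 2281 in the control female. Acta2 alone gave 1566 in the null male, 1467 in the null female, 1367 in the control male and 1514 in the control female. By the median over genes of the log2 deviation from each gene's mean, the null male was lowest and the null female highest. These medians were −0.27 and 0.51, against −0.11 in the control male and −0.15 in the control female. Fibroblast markers had the null female highest in 4 of 5, with sums of 675 in the null male and 925 in the null female, against 705 in the control male and 636 in the control female. Endothelial markers, 4 of 5 tested, summed to 377 in the null male and 381 in the null female, against 295 in the control male and 271 in the control female. The part of tissue composition in the interferon genes was not tested.

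Of the immune lists, myeloid markers, 6 of 8 tested, gave 3463 in the null male and 3508 in the null female, against 3879 in the control male and 3445 in the control female. Plasmacytoid dendritic cell markers, 4 of 5 tested and with Bst2 among them, summed to 425 in the null male and 497 in the null female, against 259.9 in the control male and 435 in the control female. B cell and plasma cell markers, 6 of 7 tested, summed to 4235 in the null male and 3403 in the null female, against 4237 in the control male and 3209 in the control female. Jchain was the largest part of each sum, with 2881 in the null male and 3234 in the control male. Each of the other markers tested, Cd79a, Cd79b, Ms4a1, Pou2af1 and Xbp1, was lowest in the control male. The median log2 deviation of the list was −0.978 in the control male and 0.695 in the control female. It was −0.075 in the null male and 0.447 in the null female. In these 3 lists the sums did not place the null female and the null male at opposite ends with the controls between. Lyz2 was most of the myeloid sums (2759 in the null male, 3262 in the control male). In the dendritic list Spib had 40.0 in the control male and 180.6 to 202.5 on the other arrays. By gene, the null female was highest and the null male lowest in 2 of 4 dendritic markers, Bst2 and Ccr9. That held in 1 of 6 myeloid and 0 of 6 B cell markers (14.4% of all genes tested). The dendritic median log2 deviation ran from −0.123 in the control male to 0.402 in the null female. None of the marker lists had a gene at or below 0 on any array.

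**Figure D4:**
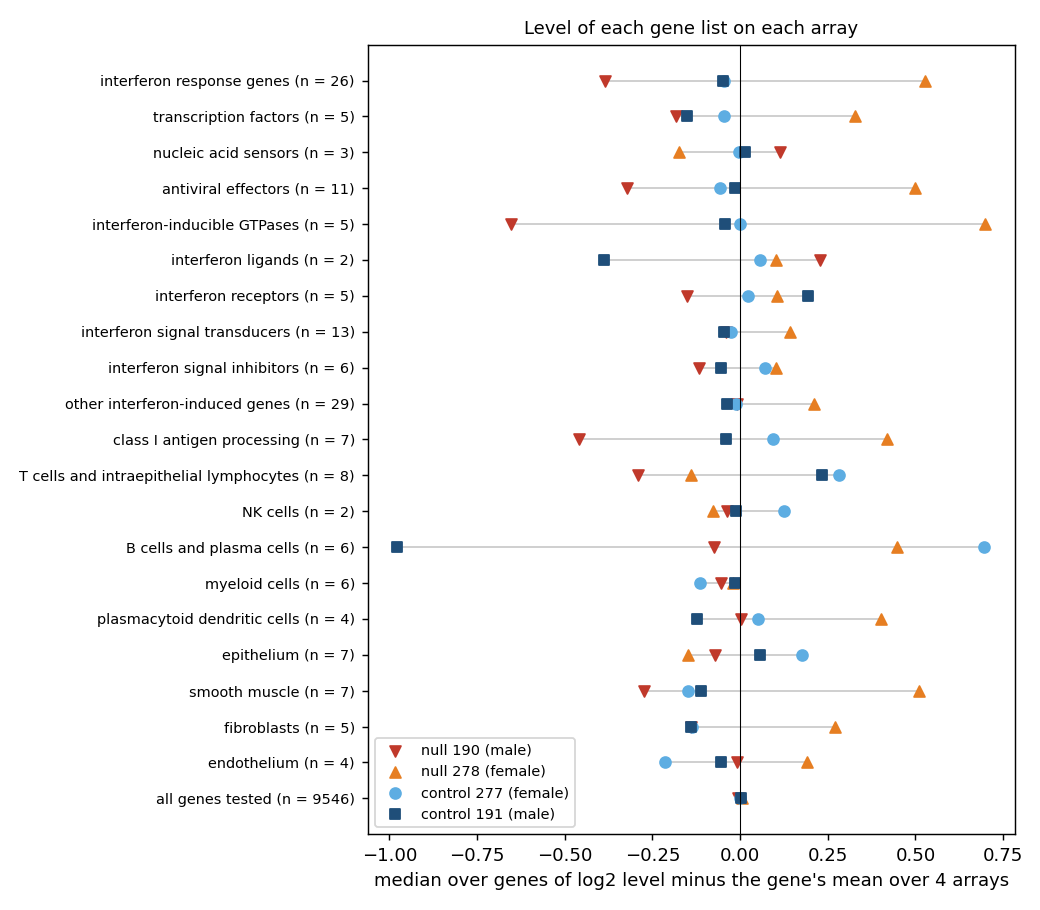
Median over the genes of each list of the log2 level minus the mean of that gene over the 4 arrays, 1 point per array, with the number of genes tested beside each list. For the interferon response genes the null female stands at 0.53 and the null male at −0.39 with both controls near −0.05, while all genes tested stand near 0 on every array. The same ends are seen for class I antigen processing (0.42 and −0.46) and smooth muscle (0.51 and −0.27). Not every list has them, and for the T cell markers both null animals (−0.14 and −0.29) stand below both controls.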

How the data were processed

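Total RNA from small intestine of 4 mice was hybridised to Affymetrix arrays, 1 per mouse, per the labels. The deposited table holds 1 linear intensity per probe set and array, and how the authors summarised, background-corrected and scaled it is not given in the sources used here. Of 22690 probe sets, 64 controls were left out. Of the remaining 22626, 20380 had 1 gene in the platform annotation, 691 several and 1555 none. Array medians of log2(intensity + 16) differed by 0.23, above a limit of 0.2, so intensities were quantile normalized. Negative values were raised to 0 and log2(intensity + 16) was taken, which understates changes of dim genes. The dimmest 30% of probe sets were left out. The null minus control difference was fitted in R 4.3.3 using limma 3.58.1 (lmFit, eBayes with an intensity trend, no covariates), two-sided, with p values adjusted by Benjamini-Hochberg across the 15838 probe sets left and a threshold of 0.05. The fit, which had 2 residual degrees of freedom, was tested on simulated data. The simulated differences were far larger than those of the interferon response genes, and the simulated spread was smaller than the pooled spread between the null animals. That check does not cover differences of the size found here. All listed genes with a probe set of their own are named, with standard errors for the 6 smallest unadjusted p values. Of the other interferon pathway genes, those with the smallest p and the receptors are named. The list, its roles and the other lists were chosen with earlier results of these data known. P values rest on the spread between these 4 animals, which limma moderates toward a trend over all probe sets tested. The prior degrees of freedom were 4.65, against 2 residual ones, so that trend had the larger weight. Gene symbols are those of the platform annotation, which can be old, and promoter windows come from RefSeq on GRCm38.p6 and were matched by symbol. Alternatives were another pseudocount, filter, scaling, prior or probe set rule, sex as a block, and each array left out.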

Additional observations from a re-analysis of the deposited data

Results flagged for a closer look

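The null minus control difference had opposite signs in the male and the female pair for most genes, and with 1 animal of each sex per group the difference between the pairs was not tested. Over the 26 interferon response genes, the median null minus control log2 difference of the female pair exceeded that of the male pair by 0.98 (0.975 before rounding). In 8 genes the pairs differed in sign by at least 0.5 each way. The female minus male difference was 2.31 for Rtp4, 1.96 for Oasl2, 1.74 for Gbp2, 1.64 for Ifit1, 1.56 for Irgm1, 1.32 for Igtp, 1.30 for Iigp1 and 1.07 for Ifih1. In the null male, Oasl2, Ifit1, Irgm1 and Iigp1 lay below the background level of 31.2. Gbp2, at 31.8, and Rtp4, at 32.8, were just above it. The sizes for these genes are uncertain, and no ranking is read from them.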

How the results depend on the processing

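The groups share no animal numbers, so an alternative paired the animals by sex as a block. In limma, 29 probe sets passed under that block, and without an intensity trend 1, in place of 2, while 0 interferon response genes passed under any alternative. Leaving out 1 array gave 0 to 35 probe sets (0 without the control male, 10 without the null female and 35 without the null male), and a median difference over the interferon genes from −0.295 without the null female to 0.576 without the null male. The genes with the groups apart numbered 1 to 15 lower and 4 to 22 higher in those fits. The 15 were without the null female (38.8% of all genes lower) and the 22 without the null male (35.9% of all genes higher). For the fits without a control the share of all genes is not given here, so their counts are not read. With no filter on dim probe sets 1 gene was lower, and with no normalization 1, in place of 0. Averaging the probe sets of a gene left 4 genes with the same sign in both pairs, in place of 7. The difference of Oas1a ranged from −0.093 without the null female to 1.523 with 1 array left out, and that of Stat2 from −1.04 to 0.051, the last without the null male. Irf7 ranged from 0.044 to 0.923 and Zbp1 from 0.056 to 0.865 in those fits. With a pseudocount of 64 the differences were 0.327 for Cxcl10, 0.176 for Irf9 and −0.218 for Stat2. Cxcl10 without the null female and Stat2 without the control female fell below the filter and have no value. With 1 array left out the null female was highest of the arrays left in 19 to 22 genes and the null male lowest in 15 to 17. The null female was highest in 35.9% of all genes without the null male, and the null male lowest in 38.8% without the null female. No such share is given for the fits without a control. The alternatives for these 2 counts and for the count of shared signs were chosen after seeing the data. In all, 19 of 26 genes changed sign when some array was left out, and 8 under another setting. Signal near background and 2 animals per group limit the precision.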

Other observations

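Class I antigen processing genes, which type II interferon induces, were all 7 bright enough to test. The null male was lowest in 6 (32.8% of all genes tested) and the null female highest in 5 (27.4% of all genes). Tap1, a subunit of the peptide transporter, had deposited intensities of 27.7 in the null male and 102 in the null female, against 68.1 in the control male and 69.3 in the control female. Tap2, the other subunit, had 51.3 in the null male and 92.1 in the null female, against 70.4 in the control male and 104.6 in the control female, as deposited intensities, so both females were above both males. The median null minus control log2 difference of the 7 was −0.07, with medians of −0.25 between the males and 0.30 between the females. With limma 0 of the 7 passed, and 0 had an unadjusted p under 0.05.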
